A study of Mus musculus with 217 samples.

Results

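The 8 mouse glutathione peroxidase genes, Gpx1 to Gpx8, were followed in striatum and cerebral cortex of an inducible Huntington's disease (HD) mouse. They are 8 of the 54532 genes in the count tables, and all 8 were listed in both. Gpx6 was chosen by its large striatal difference between LacQ140 and WT + IPTG mice in these same libraries, and the other 7 genes by their family name. The values of Gpx6 in that contrast, and in group or tissue contrasts built on the same LacQ140 or WT + IPTG striatal libraries, are therefore given as a description with no test. Levels are given as CPM, counts scaled to a common library size after TMM normalization, an edgeR factor that levels library composition.

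All mice were on a C57BL/6 background and carried a beta-actin-LacIR transgene, from which a Lac repressor is made throughout the body. The mutant mice were Hdh(LacO-140Q/+), with a long glutamine-coding repeat and Lac operators in 1 huntingtin allele, and the WT mice were Hdh(LacO-+/+). IPTG, a lactose analog, releases the repressor, so that mutant huntingtin (mHtt) is expressed. LacQ140 mice received IPTG from embryonic day 5 onwards, LacQ140_A mice never received it, and in LacQ140_2M and LacQ140_8M mice it was withdrawn at 2 and at 8 months of age. WT mice without IPTG and WT + IPTG mice were the controls. Tissue was taken at 6 and at 12 months, and the 8-month withdrawal was sampled at 12 months only. Each group held 10 mice per tissue and age, 5 of each sex, except that 12-month striatum had 9 mice (4 females and 5 males) in the WT, LacQ140 and LacQ140_8M groups. In all there were 217 libraries of 110 mice, of which 107 gave both tissues.

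Library totals lay between 33292057 and 68038831 counts. The 6-month and the 12-month libraries carry different batch labels and were deposited in separate tables, so age and batch cannot be told apart. The 12-month cortex libraries stood apart as a set: the slope of log2 CPM on log2 transcript length lay between -0.51 and -0.15 there and between -0.15 and 0.16 in the other libraries. The ranges met at their ends. The median slope was -0.33 in 12-month cortex, 0.01 in 6-month cortex, and 0.006 and 0.09 in 6-month and 12-month striatum. Choroid plexus markers summed to more than 100 CPM in 1 of 50 and 5 of 57 striatal libraries and in 7 of 50 and 19 of 60 cortical libraries, at 6 and 12 months. All 10 spiny projection neuron markers were higher in striatum than in cortex at both ages, and all 5 cortical excitatory neuron markers were lower. Htt counts are the sum of both alleles. At 6 months striatal Htt averaged 116.1 ± 14.8 CPM in WT, 111 ± 11.5 in WT + IPTG, 102 ± 10.9 in LacQ140, 88.9 ± 8.89 in LacQ140_2M and 87.7 ± 8.32 CPM in LacQ140_A mice (SD, n = 10). At 12 months the log2 difference of Htt between LacQ140_8M and LacQ140 was -0.0012 (SE 0.07) in striatum and -0.41 (SE 0.13) in cortex, so total Htt did not separate these groups in striatum.

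Glutathione peroxidases use the thiol of glutathione to reduce hydrogen peroxide and organic hydroperoxides. The reaction runs through a catalytic selenocysteine, or in some members a cysteine at the same place, and the enzymes with selenium are the faster ones. Gpx1 is the widespread cytosolic enzyme, Gpx2 that of the gut epithelium, Gpx3 a secreted form found in plasma, and Gpx4 the enzyme that reduces phospholipid hydroperoxides inside membranes and holds back ferroptosis. Gpx5 is secreted in the epididymis, Gpx6 is known from the olfactory epithelium, and Gpx7 and Gpx8 reside in the endoplasmic reticulum.

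The codon of the catalytic residue is where the 8 genes divide. It is printed here on the coding strand with 12 bases on either side, the codon itself in capitals, from the GENCODE vM21 transcripts of the build GRCm38. A TGA in this place is read as selenocysteine, which needs a hairpin further along the same transcript.

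Gpx1: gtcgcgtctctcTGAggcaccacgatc
Gpx2: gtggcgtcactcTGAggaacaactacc
Gpx3: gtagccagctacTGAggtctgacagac
Gpx4: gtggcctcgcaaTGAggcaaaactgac
Gpx5: gtggctacctatTGCggtctgacaatc
Gpx6: gtggcatccttcTGTggcctgacagct
Gpx7: gtagctagcgaaTGTggcttcacagac
Gpx8: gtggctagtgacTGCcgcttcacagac

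In 4 members, Gpx1 to Gpx4, the codon is TGA, and in the other 4 it is TGT or TGC for cysteine. The mouse Gpx6 codon is that of cysteine at residue 73, at chr13:21313777-21313779 on the plus strand, while the human enzyme is a selenoprotein. Gpx3, with its selenocysteine at residue 73 of 226, and Gpx5, with a cysteine at residue 73, have the residue at the same position as Gpx6. The selenocysteine is residue 47 of 201 in Gpx1, 40 of 190 in Gpx2 and 129 in the longest Gpx4 protein. The cysteine is residue 56 of 186 in Gpx7 and 79 of 209 in Gpx8.

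Gpx6 (ENSMUSG00000004341) spans chr13:21312125-21319624 on the plus strand, and Gpx5 (ENSMUSG00000004344) lies 19.4 kb before it on the minus strand at chr13:21286429-21292731. Gpx8 (ENSMUSG00000021760, chr13:113042753-113046410) is on the same chromosome but far away. The others are Gpx1 (ENSMUSG00000063856, chr9:108338903-108340343), Gpx2 (ENSMUSG00000042808, chr12:76792333-76795554), Gpx3 (ENSMUSG00000018339, chr11:54902453-54910377), Gpx4 (ENSMUSG00000075706, chr10:80047166-80056439) and Gpx7 (ENSMUSG00000028597, chr4:108400390-108406961). Sequence shared with other genes was a limit for Gpx4 alone among the well-detected members: 48.4% of the 100-base windows of its transcript also occur in a Gpx4 pseudogene, Gpx4-ps2, or a second unnamed copy. The figure was 5.17% for Gpx2 and 0 for Gpx6 and the other members. The median of Gpx4-ps2 was 3.72 and 3.13 CPM in striatum and 5.43 and 21.5 CPM in cortex at 6 and 12 months, so its counts and those of Gpx4 may not be fully separated. Gpx2 lies within Fntb and Gpx8 within Cdc20b on opposite strands, and strandedness of the libraries is not given in the sources used here.

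Per kilobase of transcript, Gpx4 was the most abundant member in every tissue and age and Gpx1 came next. Over all striatal libraries Gpx4 averaged 543 CPM per kb at 6 months and 349 at 12 months, and Gpx1 averaged 233 and 159. Gpx3 followed with 9.24 and 8.95 CPM per kb. The place of Gpx6 differed between groups. Per kb it averaged 9.07 and 8.85 CPM in WT and WT + IPTG striatum at 6 months and 8.54 and 8.99 CPM at 12 months, above the group means of Gpx7 (4.99 to 5.52 and 3.75 to 4.39 CPM per kb) and Gpx8 (3.14 to 4.30 and 1.96 to 2.37). At 6 months LacQ140_A striatum, at 6.63 CPM per kb, was above Gpx7 as well, while LacQ140_2M (4.59) and LacQ140 (2.05) were under it. At 12 months the 4 mutant groups, at 0.582 to 2.07 CPM per kb, were each under the Gpx7 and Gpx8 means of the same group. In WT + IPTG striatum at 12 months, Gpx6 and Gpx3 had overlapping ranges. Gpx2, the gut form, averaged 0.0810 and 0.0783 CPM per kb in striatum and its highest count in any library was 12. Gpx5 was counted in 7 of 50 and 4 of 57 striatal libraries and in 1 of 50 and 6 of 60 cortical ones, with at most 3 counts in a library, so no level or change of Gpx5 was detectable at this depth. Of the 8 members, 6 therefore had measurable levels in striatum, and 5 in cortex, where Gpx6 dropped to the level of Gpx2. Gpx4 and Gpx1 were both much higher in 12-month cortex (group means of 1841 to 2560 and 353 to 479 CPM) than in 6-month cortex (646 to 798 and 121.3 to 142 CPM), in the libraries whose length slope stood apart.

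**Figure D1:**
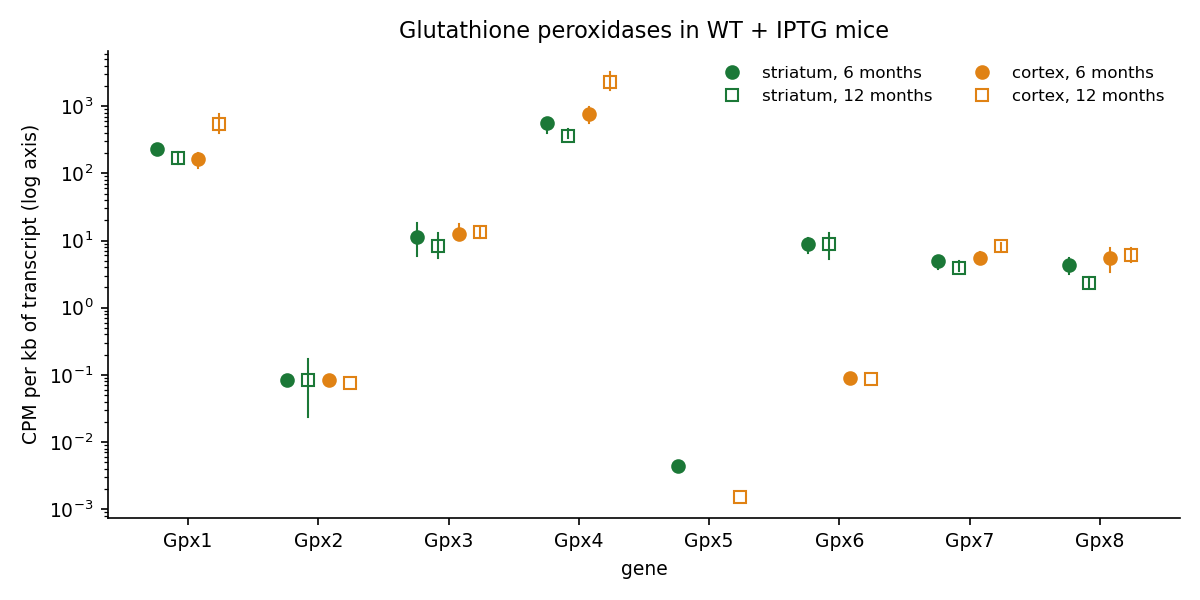
Mean level of each glutathione peroxidase gene in WT + IPTG mice, in CPM per kb of transcript on a log axis, by tissue and age (n = 10 libraries each). Bars run from the lowest to the highest library and are left out where the lowest library is at 0, and means of 0 (Gpx5) cannot be drawn on this axis. Gpx4 and Gpx1 lie at the top in all 4 series, and Gpx6 is with Gpx3, Gpx7 and Gpx8 in striatum but with Gpx2 in cortex.

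Gpx6 was counted in every striatal library, and its group means ran from 2.75 to 12.2 CPM at 6 months and from 0.779 to 12.0 CPM at 12 months. In 6-month striatum the lowest, median and highest of the 10 libraries were 9.17, 12.1 and 14.3 CPM in WT and 8.68, 11.1 and 14.5 CPM in WT + IPTG mice. In LacQ140 mice they were 2.12, 2.76 and 3.28 CPM. With mHtt lowered from 2 months they were 4.07, 6.25 and 8.58 CPM, and with lowering from conception 4.38, 8.56 and 15.6 CPM. The LacQ140 libraries were thus the lowest group, with no overlap with any other group, while the LacQ140_A libraries reached from the LacQ140_2M range to above the highest WT library.

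At 12 months every group with the mutant allele had a lower range than both WT groups. The lowest, median and highest values were 5.19, 12.3 and 15.3 CPM in WT and 7.13, 10.9 and 17.2 CPM in WT + IPTG striatum. In LacQ140 striatum they were 0.459, 0.814 and 1.12 CPM. Withdrawal of IPTG at 8 months gave 0.756, 1.16 and 1.63 CPM. Withdrawal at 2 months gave 1.31, 1.91 and 3.37 CPM, and mice that never received IPTG had 1.56, 2.73 and 4.41 CPM. Every library of a mouse with the mutant allele lay below every WT library at this age, however early lowering began. The LacQ140 and WT + IPTG libraries chose Gpx6, so for them this is a description. Against WT, 3.15%, 4.09% and 7.77% of all genes were called in LacQ140_A, LacQ140_2M and LacQ140_8M striatum. In bulk tissue, fewer cells of a type and less RNA per cell cannot be told apart.

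**Figure D2:**
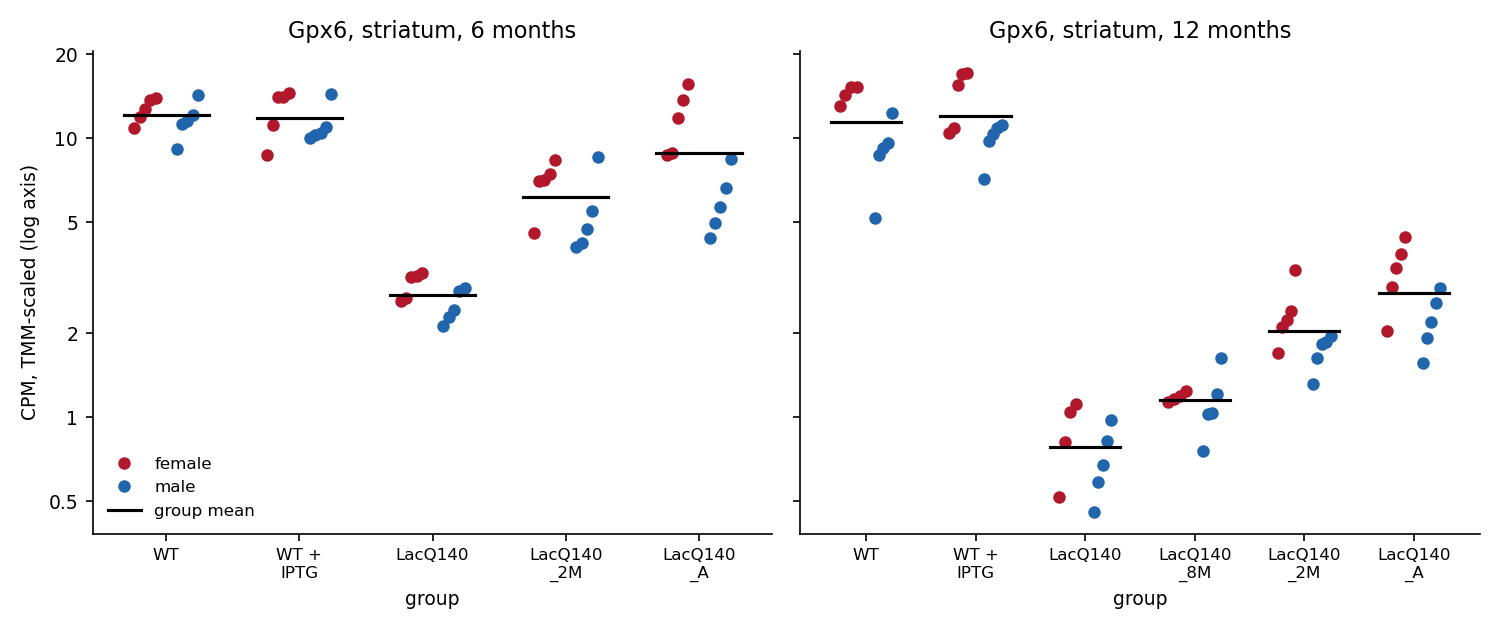
Gpx6 level of each striatal library in TMM-scaled CPM on a log axis, by group, at 6 months (left, n = 10 per group) and 12 months (right, n = 9 or 10), females in red and males in blue, with the group mean as a bar. LacQ140 libraries lie at 2.12 to 3.28 CPM at 6 months and 0.459 to 1.12 CPM at 12 months, and the lowering groups lie above them at 6 months, where LacQ140_A reaches into and past the WT range at up to 15.6 CPM, but all below the WT groups at 12 months.

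Between LacQ140 and WT + IPTG striatum, the contrast that chose Gpx6, the log2 difference was -2.11 (SE 0.16) at 6 months and -3.97 (SE 0.20) at 12 months. The group means were 2.75 ± 0.401 against 11.9 ± 2.17 CPM (SD, n = 10 each) and 0.779 ± 0.236 (n = 9) against 12.0 ± 3.35 CPM (n = 10). All LacQ140 libraries were below all WT + IPTG libraries at both ages. Of all genes tested, 7.93% at 6 months and 9.44% at 12 months were called in this contrast, where a call means a Benjamini-Hochberg adjusted p under 0.05 over all genes with a change of 20% or more. The step between the ages, -1.86 (SE 0.28), is likewise a description, as is the difference between striatum and cortex, -1.61 (SE 0.54) at 6 and -3.72 (SE 0.63) at 12 months. The last of these was -4.47 (SE 0.64) without the WT + IPTG mouse F5, whose cortical library held 21 of the 42 Gpx6 counts of its group.

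Against LacQ140 mice, Gpx6 was higher by 1.69 (SE 0.16) in LacQ140_A and 1.16 (SE 0.16) in LacQ140_2M striatum at 6 months. At 12 months it was higher by 1.85 (SE 0.22) in LacQ140_A, 1.42 (SE 0.23) in LacQ140_2M and 0.58 (SE 0.26) in LacQ140_8M mice. On the CPM scale the mean of LacQ140_A covered 67.3% of the gap between LacQ140 and WT + IPTG at 6 months but 17.8% at 12 months. LacQ140_2M covered 37.3% and then 11.2%, and LacQ140_8M 3.34%. These shares depend on the scale and are larger on the log2 scale. There the LacQ140_A values of 1.69 and 1.85 stand beside -2.11 and -3.97 for LacQ140 against WT + IPTG. All libraries of LacQ140_A and LacQ140_2M lay above all LacQ140 libraries at both ages, and 6 of 9 LacQ140_8M libraries did. In these 5 contrasts the share of all genes called was 1.88% and 1.26% at 6 months and 0.91%, 0.608% and 0.00565% at 12 months, in the order given.

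What remained between the lowering groups and WT mice compares none of the libraries that chose Gpx6 and was tested. Those libraries did enter the shared fit from which the spread was estimated. At 6 months Gpx6 in LacQ140_2M striatum was lower than in WT, with a log2 fold change of -0.98 (SE 0.15) and an adjusted p of 1.61e-05, and all 10 libraries were below all WT libraries. In LacQ140_A striatum the difference was -0.46 (SE 0.14) and did not pass the test (adjusted p = 0.104). There 7 of 10 libraries were below all WT libraries and 1 was above them all. This difference passed with sex as a covariate and with a replicate block, with values in the last section. Without LacQ140_A F1, the highest library of the group, or without F5, it also passed, at up to -0.58 (adjusted p = 0.0235). Pituitary markers reached 117.7 CPM in F1, while the median of its group was 3.49 CPM, and their part in the Gpx6 level of F1 was not tested. Of all genes, 0.91% were called in LacQ140_A and 0.936% in LacQ140_2M.

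At 12 months the difference from WT was large in all 3 lowering groups. The log2 fold change of Gpx6 was -2.04 (SE 0.16, adjusted p = 1.16e-15) in LacQ140_A, -2.47 (SE 0.17, adjusted p = 6.40e-19) in LacQ140_2M and -3.30 (SE 0.19, adjusted p = 1.16e-22) in LacQ140_8M mice. The share of genes called was 3.15%, 4.09% and 7.77%. No library of the 3 groups reached the lowest WT library.

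Between lowering groups the order of the Gpx6 means was the order of the time of withdrawal, and neighbours in it did not pass the test in the fit over all groups, while 1 of these steps passed in other fits. LacQ140_2M against LacQ140_A gave -0.53 (SE 0.15, adjusted p = 0.244) at 6 months and -0.43 (SE 0.18, adjusted p = 0.589) at 12 months, where 0.0251% and 0.0509% of genes were called. LacQ140_8M against LacQ140_2M gave -0.83 (SE 0.22, adjusted p = 0.118, with 0.0933% of genes called), and it passed with DESeq2 (-0.82, adjusted p = 0.0199), with sex as a covariate (-0.80, adjusted p = 0.0327) and with only these 2 groups fitted (-0.83, adjusted p = 0.0129). The widest step passed: LacQ140_8M was lower than LacQ140_A by a log2 difference of -1.26 (SE 0.21, adjusted p = 0.000137, with 0.972% of genes called), and 8 of 9 libraries were below all LacQ140_A libraries. Between WT + IPTG and WT striatum, Gpx6 had 95% intervals of -0.32 to 0.25 at 6 months and -0.20 to 0.36 at 12 months, with log2 fold changes of -0.03 and 0.08, a description again, since WT + IPTG striatum entered the choice of Gpx6. Of all genes, 0.584% and 0.218% were called for IPTG in striatum.

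Gpx6 was a striatal gene within this pair of tissues. In WT + IPTG mice its level was higher in striatum than in cortex of the same animals. The log2 difference was 6.56 (SE 0.18) in the younger and 6.56 (SE 0.20) in the older mice, a fold of 94.5 and 94.6. These folds rest on few cortical counts, 60 and 42 over 10 libraries each, and at 12 months a single library, WT + IPTG F5 at 0.613 CPM, held 21 of the 42. Without that mouse the 12-month difference was 7.32 (SE 0.22), a fold of 159.8. Without the mouse with the highest cortical count at 6 months, WT + IPTG F4 with 14 of the 60, it was 6.79 (SE 0.19), a fold of 110.6, so the 2 ages are not shown to be alike. The striatal side of this difference holds libraries that chose Gpx6, so it is a description with no test. Between the tissues 27.5% and 45.4% of all genes were called. In cortex the group means of Gpx6 ran from 0.0743 to 0.173 CPM at 6 months and from 0.0813 to 0.145 CPM at 12 months, near the 0.0901 CPM that 3 counts are worth in the shallowest library. The highest count in any cortical library was 28. At this depth no cortical difference of Gpx6 between groups passed: LacQ140 against WT + IPTG gave -0.50 (SE 0.52, adjusted p = 0.833) at 6 months and -0.39 (SE 0.58, adjusted p = 0.860) at 12 months. The largest was -1.11 (SE 0.49, adjusted p = 0.344) in LacQ140_A against WT cortex at 6 months. The spiny neuron markers summed to 6143 to 9128 CPM in WT + IPTG striatum and 299.1 to 596 CPM in WT + IPTG cortex at 6 months. Across the 50 cortical libraries at 6 months, after subtraction of group means, Gpx6 and this sum had a Spearman rho of 0.64, against 0.09 over the 60 libraries at 12 months. These points share few counts each, and the part of striatal tissue in the cortical signal was not tested.

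**Figure D3:**
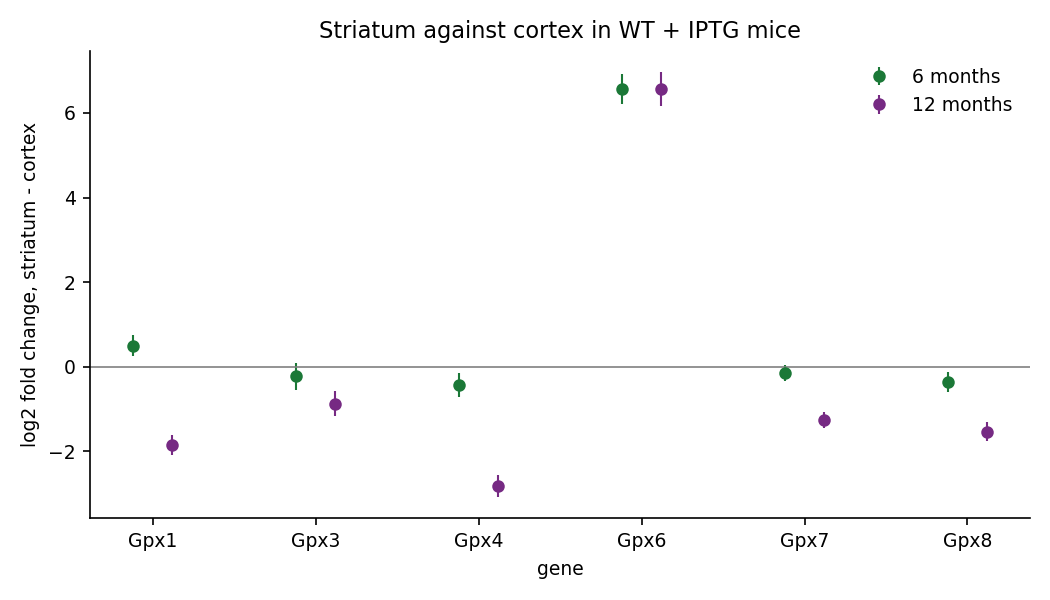
Log2 fold change of striatum against cortex in WT + IPTG mice for the 6 members with measurable levels, at 6 months (green) and 12 months (purple), with 95% intervals from the fit with mouse as a block. Gpx6 is at 6.56 at both ages, with the 12-month value at 7.32 when the mouse F5 is left out, while the other 5 genes lie between -0.43 and 0.50 at 6 months and between -2.81 and -0.87 at 12 months.

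The paralogs did not share this pattern. At 6 months striatum had more Gpx1 (log2 difference 0.50, SE 0.13, adjusted p = 0.000892), Gpx4 lower (-0.43, SE 0.14, adjusted p = 0.00919) and Gpx8 lower (-0.36, SE 0.12, adjusted p = 0.0143), while Gpx3 (-0.23, adjusted p = 0.364) and Gpx7 (-0.14, adjusted p = 0.306) did not pass. At 12 months all 5 were lower in striatum, Gpx4 by 2.81, Gpx1 by 1.84, Gpx8 by 1.53, Gpx7 by 1.26 and Gpx3 by 0.87 on the log2 scale (log2 fold changes -2.81, -1.84, -1.53, -1.26 and -0.87). These values rest on the 12-month cortex libraries with the displaced length slope, in which Htt, a long transcript, was lower than in striatum by 2.33 although it differed by -0.13 at 6 months. The direction of Gpx1 between the tissues turned with age, and the part of RNA length in this was not tested.

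Females had more striatal Gpx6 than males. With group as a covariate, female minus male came to 0.36 (SE 0.08, adjusted p = 0.0222) in the 6-month and 0.52 (SE 0.08, adjusted p = 4.55e-05) in the 12-month libraries on the log2 scale, and 0.279% and 0.218% of all genes were called. The female mean was the higher one in all 5 groups at 6 months and in all 6 groups at 12 months. At 12 months the 4 WT females had 13.1 to 15.3 CPM and the 5 WT males 5.19 to 12.3 CPM, so that the sexes did not overlap. WT + IPTG females averaged 14.2 ± 3.29 CPM and males 9.87 ± 1.61 CPM (SD, n = 5 each). The sum of the spiny neuron markers was 9358 ± 555 CPM in WT females and 9235 ± 310.5 CPM in WT males at 12 months. The female mean of this sum was the higher one in 4 of 5 groups at 6 months and in 3 of 6 groups at 12 months, and none of the 10 markers was called between the sexes at either age (medians 0.03 and -0.04). Blood markers were lower in females, with 4 of 5 called at 6 months (median -0.39) and 0 of 5 at 12 months (median -0.51), while 1 of 6 pituitary markers was higher at each age, with list medians of -0.45 and -0.18. The part of these in the Gpx6 difference was not tested. In cortex the sex difference of Gpx6 was 0.57 (SE 0.31, adjusted p = 0.499) and 0.20 (SE 0.33, adjusted p = 0.860), with 0.192% and 0.154% of genes called.

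The sex difference was also fitted within genotypes and groups, a choice made after these values were seen. Within the WT groups it was 0.13 (adjusted p = 1) at 6 months and 0.61 (adjusted p = 0.00116) at 12 months. Within the mutant groups it was 0.52 (adjusted p = 0.0129) and 0.36 (adjusted p = 0.260). The difference between these, genotype by sex, did not pass at either age (0.39 and -0.25, both adjusted p = 1), so the fits do not show that the genotypes differ. In the order given, 0.117%, 0.116%, 0.0838%, 0.133%, 0.0112% and 0.00283% of genes were called.

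The widest gap between the sexes was in LacQ140_A striatum at 6 months. The 5 females had 8.70, 8.88, 11.9, 13.7 and 15.6 CPM and the 5 males 4.38, 4.95, 5.68, 6.65 and 8.42 CPM, with no overlap. The log2 difference was 0.96 (SE 0.17, adjusted p = 0.00149), where 0.0391% of genes were called. In the same group at 12 months it was 0.58 (SE 0.20, adjusted p = 0.0648), where 6.44% were called. The 6-month group was picked as the widest. The adjustment over genes does not cover that choice, here or in the 1-sex comparisons that follow. WT + IPTG striatum at 12 months also passed (0.52, SE 0.15, adjusted p = 0.0380), with 401 genes called higher and 377 lower in females. WT striatum at 12 months gave 0.69 (SE 0.16, adjusted p = 0.0706). Against WT mice of the same sex, the remaining difference of LacQ140_A was -0.11 (95% interval -0.43 to 0.21, adjusted p = 0.957, with 0.0391% of genes called) in females and -0.96 (SE 0.17, adjusted p = 0.000505, with 0.768% of genes called) in males. The test of the difference between the sexes gave 0.85 (SE 0.23) and did not pass over all genes (adjusted p = 0.401). It was called for 0.0223% of genes in that group and for 0.126% in LacQ140_2M at 6 months, where Gpx6 gave 0.23 (adjusted p = 0.940). In LacQ140_A, LacQ140_2M and LacQ140_8M at 12 months it was called for 0, 0 and 0% of genes, and Gpx6 gave -0.11, -0.23 and -0.64. In the LacQ140_A females of 6 months the spiny markers summed to 7686 ± 866 CPM and in the males to 7225 ± 148 CPM (SD, n = 5 each).

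**Figure D4:**
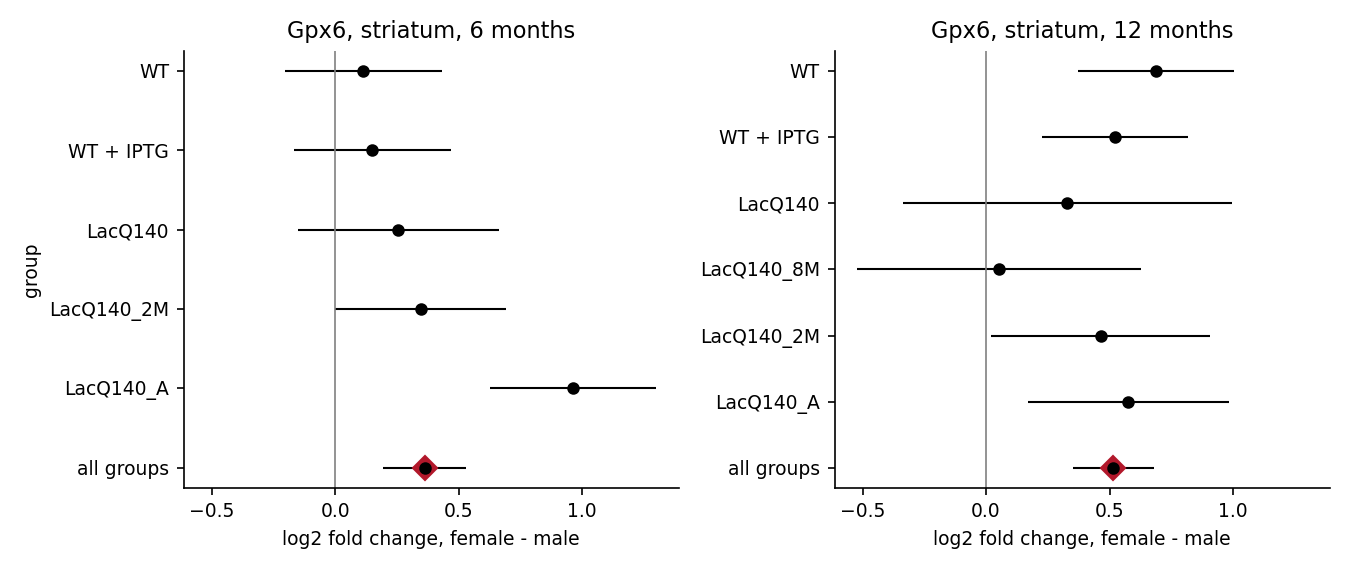
Log2 difference of striatal Gpx6, female minus male, in each group and over all groups (diamond), at 6 months (left) and 12 months (right), with 95% intervals from edgeR fits (4 or 5 females and 5 males per group). All points are above 0, and LacQ140_A at 6 months is the highest at 0.96.

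Among the other 7 members, the contrast of LacQ140 with WT + IPTG striatum called 1, Gpx8, of 10 values of the 5 with measurable levels at the 2 ages, beside 7.93% and 9.44% of all genes. Gpx2 and Gpx5 were fitted too, but with so few counts that a missing call says nothing about them, and they are left out of the counts of values here and in the next contrasts; none of their values was called. Gpx8, an endoplasmic reticulum peroxidase, had lowest, median and highest values of 2.48, 2.89 and 3.53 CPM in LacQ140 striatum at 6 months, while WT + IPTG striatum had 2.84, 3.94 and 4.98 CPM. The ranges overlapped, and 4 of 10 LacQ140 libraries were below all WT + IPTG libraries. The log2 fold change came to -0.40 (SE 0.11) with an adjusted p of 0.00606. WT mice without IPTG had 2.59, 3.38 and 4.76 CPM, so both WT groups reached higher than LacQ140.

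Gpx8 went with the blood markers in the 6-month striatum. After subtraction of group means, its Spearman rho with the summed blood markers was 0.63 over 50 libraries, but -0.27 over the 57 libraries at 12 months. Sex was not subtracted. Female minus male was -0.19 for Gpx8 (adjusted p = 0.174) and -0.39 for the blood median at 6 months, and 0.06 and -0.51 at 12 months. The part of sex in these rho values was not tested. The 5 blood markers summed to 223.9 to 382.5 CPM (median 325) in LacQ140 and 183 to 569 CPM (median 357) in WT + IPTG mice, none of the 5 was called in that contrast, and their part in the Gpx8 difference was not tested. In that contrast 2 of 6 astrocyte, 3 of 6 oligodendrocyte, 4 of 6 microglia, 1 of 6 endothelial and 2 of 7 meningeal fibroblast markers fell and none rose. At 12 months all 5 blood markers fell (median -1.06), while Gpx8 had a median of 1.92 CPM in LacQ140 striatum, against 2.00 CPM in WT + IPTG striatum (log2 difference -0.04 with SE 0.10, adjusted p = 0.935). The difference between the ages, 0.36 (SE 0.15), did not pass (adjusted p = 0.246), beside 2.07% of all genes called in striatum and 0.00268% in cortex. LacQ140_A and LacQ140_2M were not separated from LacQ140 by Gpx8 at 6 months (log2 fold changes of -0.06 and 0.12, adjusted p = 0.913 and 0.755), and the 8-month withdrawal gave -0.15 (adjusted p = 0.864) at 12 months.

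For the abundant enzymes Gpx1 and Gpx4, the group difference was bounded more closely than the level of a single library. Gpx1 differed between LacQ140 and WT + IPTG mice by 0.07 (95% interval -0.12 to 0.26) at 6 months and -0.10 (-0.21 to 0.02) at 12 months. Gpx4, the ferroptosis guard, differed by -0.02 (-0.21 to 0.16) and -0.08 (-0.20 to 0.05). The 6-month Gpx4 levels were 408 to 635 CPM in LacQ140 mice, against 381 to 640 CPM in WT + IPTG mice, nearly the same range, and at 12 months they were 275.5 to 372 and 320 to 441 CPM. The 20% bound corresponds to 0.263 on the log2 scale, and all 4 of these intervals lay inside it in both directions. The intervals of Gpx7, 0.11 (-0.06 to 0.29) and 0.17 (-0.03 to 0.37), reached past it on the upper side. Gpx3, the plasma form, gave -0.01 (-0.38 to 0.36) and 0.11 (-0.30 to 0.51), and Gpx2 -0.19 (-1.0 to 0.63) and -0.68 (-1.55 to 0.19). In cortex none of the 10 values passed, where 0.881% and 0.0899% of all genes were called, and the lowest adjusted p was 0.644 for Gpx1.

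**Figure D5:**
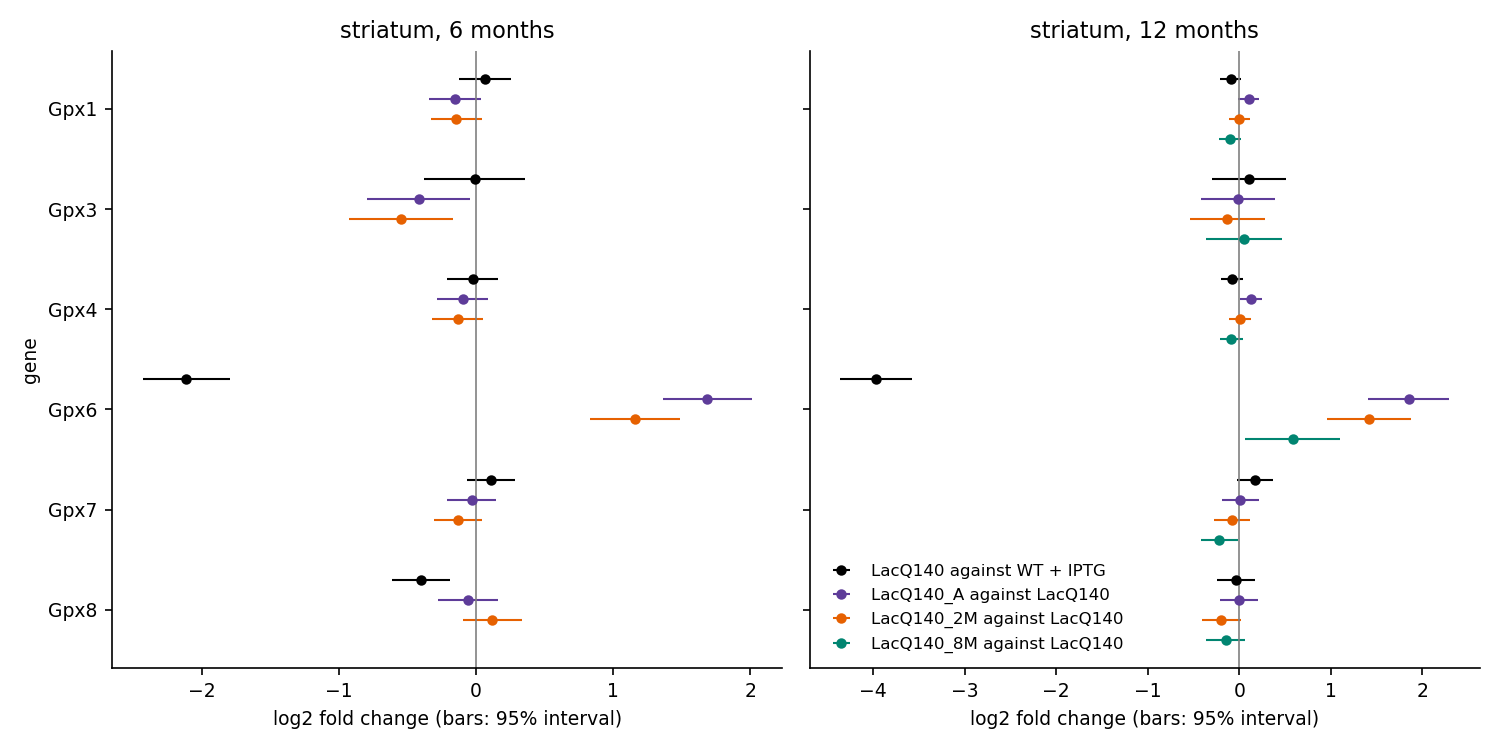
Log2 fold changes in striatum of the 6 members with measurable levels, at 6 months (left) and 12 months (right), with 95% intervals, for LacQ140 against WT + IPTG (black) and the lowering groups against LacQ140 (colours), with x axes that differ between the panels. The Gpx6 values, which chose the gene, run from -2.11 to 1.69 and from -3.97 to 1.85, while the other members stay within 0.6 of 0.

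None of the other members was called between a lowering group and LacQ140 in striatum. Of 25 values in the 5 contrasts, edgeR and DESeq2 each called 0, and 4 had an unadjusted p under 0.05. Few genes of any kind were called by edgeR there: 1.88% and 1.26% of all genes in LacQ140_A and LacQ140_2M at 6 months, and 0.91%, 0.608% and 0.00565% in LacQ140_A, LacQ140_2M and LacQ140_8M at 12 months. The lowest adjusted p was that of Gpx3 in LacQ140_2M at 6 months, at a log2 difference of -0.55 (SE 0.19, adjusted p = 0.154). Gpx3 ranged widely inside groups, from 5.06 to 17.8 CPM in LacQ140 and from 4.94 to 10.5 CPM in LacQ140_2M mice. In cortex 0 of 25 values were called by edgeR or DESeq2 and 2 had an unadjusted p under 0.05, and 0.00834% and 0% of all genes were called at 6 months (LacQ140_A and LacQ140_2M) and 0.0435%, 0.0841% and 0% at 12 months (LacQ140_A, LacQ140_2M and LacQ140_8M). The cortical Gpx4 of LacQ140_A at 12 months, 0.48 (SE 0.15, adjusted p = 0.208), and Gpx1, 0.40 (SE 0.14, adjusted p = 0.231), were the 2 values. When only the LacQ140_A and LacQ140 libraries were fitted, both passed (adjusted p = 0.000127 and 0.00122). Both values rest on the 12-month cortex libraries with the displaced length slope. The median transcript lengths of Gpx4 and Gpx1 are 959 and 787 bases.

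Against WT, the lowering groups also had 0 of 25 striatal values called by either tool, with 5 at an unadjusted p under 0.05, beside 0.91% and 0.936% of all genes called at 6 months and 3.15%, 4.09% and 7.77% at 12 months. Gpx4 in LacQ140_8M at 12 months came closest. It stood at -0.18 (SE 0.06, adjusted p = 0.0389), a fold of 1.14 that falls short of the 20% bound, with 271.5 to 352 CPM in LacQ140_8M and 323 to 382.3 CPM in WT striatum. Gpx8 in LacQ140_A at 6 months was at -0.34 (SE 0.11, adjusted p = 0.101), and it passed when LacQ140_A M5 or WT F4 was left out. In cortex 0 of 25 values were called by edgeR or DESeq2 and 0 had an unadjusted p under 0.05, and the share of genes called was 0.425% and 0.111% at 6 months and 0.0174%, 0.0899% and 0.0377% at 12 months.

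Between lowering groups 0 of 20 striatal and 0 of 20 cortical values were called by edgeR or DESeq2, with 3 and 2 at an unadjusted p under 0.05, and the share of all genes called lay between 0.0251% and 0.972% in striatum. Gpx4 and Gpx1 came near the line in LacQ140_8M against LacQ140_A striatum, at -0.21 (SE 0.06, adjusted p = 0.0529) and -0.20 (SE 0.06, adjusted p = 0.0564), which are both under the 20% bound. In cortex the contrasts called 0.0556% of genes at 6 months (LacQ140_2M against LacQ140_A), and 0.0841%, 0.0203% and 0.0899% at 12 months (LacQ140_2M against LacQ140_A, LacQ140_8M against LacQ140_A and LacQ140_8M against LacQ140_2M). Without LacQ140_8M F3, Gpx1 and Gpx4 passed in LacQ140_8M against LacQ140_A cortex at 12 months (-0.53 and -0.57, adjusted p = 0.0375 and 0.0346). These values too rest on the cortex libraries with the displaced length slope.

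IPTG in WT mice called none of the other members in striatum or in cortex by either tool, where 1 and 0 of 10 values had an unadjusted p under 0.05, and 0.584% and 0.218% of striatal and 0.609% and 0% of cortical genes were called. The 1 value was Gpx3 in 6-month striatum, with 4.04, 5.82 and 11.3 CPM as lowest, median and highest in WT and 4.88, 7.99 and 15.3 CPM in WT + IPTG mice (log2 fold change 0.55, SE 0.19, adjusted p = 0.210). It was -0.38 at 12 months (SE 0.20, adjusted p = 0.490). Gpx3 went with low spiny neuron markers in striatum, with a Spearman rho after subtraction of group means of -0.60 over 50 libraries at 6 months and -0.44 over 57 at 12 months, which describes libraries and not cells. Sex called 0 of 10 values in each tissue by either tool, with 4 and 1 at an unadjusted p under 0.05, beside 0.279% and 0.218% of all genes in striatum and 0.192% and 0.154% in cortex. Within LacQ140_A alone, in a fit chosen after values were seen, Gpx4 was higher in females of 12-month striatum (0.31, SE 0.07, adjusted p = 0.00326), where 6.44% of all genes were called. Whether the disease effect differed between tissues was called for 1.12% and 2.8% of all genes and for none of the 5 measurable paralogs at 6 or 12 months.

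The wider pathway was read from lists of genes that surround the family. In LacQ140 against WT + IPTG striatum 7.93% of all genes were called at 6 months and 9.44% at 12 months, the background for each count that follows. The medians of the 7 lists lay between -0.09 and 0.04, where the median of all genes was 0. Of the 16 genes of glutathione synthesis and recycling, 0 rose and 2 fell at 6 months, and 0 rose and 1 fell at 12 months, where 7.93% and 9.44% of all genes were called. The one shared by both ages was Slc7a11, the cystine importer that feeds glutathione synthesis. It went from 21.3 ± 4.29 to 14.9 ± 2.63 CPM at 6 months (-0.52 on the log2 scale, SE 0.12, adjusted p = 0.00110) and from 21.5 ± 5.06 to 15.2 ± 1.73 CPM at 12 months (-0.50, SE 0.12, adjusted p = 0.00192). Me1, a source of NADPH, fell at 6 months (-0.33, adjusted p = 5.03e-05).

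Of 12 glutathione transferases, which join glutathione to reactive compounds, 1 rose and 1 fell at 6 months and 2 rose and 0 fell at 12 months, beside 7.93% and 9.44% of all genes. Gsto1 was the one that rose at both ages, by 0.42 (SE 0.06, adjusted p = 1.90e-07) and 0.50 (SE 0.06, adjusted p = 1.05e-09). Gstt3 fell by 0.33 on the log2 scale at 6 months and Gsta4 rose by 0.32 at 12 months. Of 18 genes for thioredoxins, peroxiredoxins, catalase and superoxide dismutases, 0 rose and 2 fell at 6 months, and 2 rose and 1 fell at 12 months, against the same shares. Sod3, the extracellular superoxide dismutase, fell at both ages, from 9.69 ± 0.949 to 6.75 ± 0.995 CPM and from 14.3 ± 1.70 to 9.21 ± 0.848 CPM (adjusted p = 0.000163 and 1.05e-06). Txnip, which binds thioredoxin, fell by 0.29 at 6 months, and Glrx, a glutaredoxin, rose by 0.39 at 12 months.

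Of the 12 genes for selenium supply and selenocysteine insertion, and of the 11 for NRF2 and its targets, 0 were called in either direction at either age. Among 13 other selenoproteins, 0 rose and 1 fell at 6 months and 2 rose and 3 fell at 12 months, beside 7.93% and 9.44% of all genes. Dio2, the deiodinase that makes active thyroid hormone, fell at both ages, by 0.79 (log2 fold change -0.79, SE 0.09, adjusted p = 6.07e-10) and by 0.70 (-0.70, SE 0.11, adjusted p = 1.02e-06), and Selenom fell by 0.34 at 12 months (adjusted p = 0.00156). Of 13 genes of lipid peroxidation and ferroptosis, 0 rose and 1 fell at 6 months and 1 rose and 0 fell at 12 months, against the same shares. They were Fth1, the ferritin heavy chain, at 2165 ± 95.9 against 2825 ± 323 CPM (-0.38, adjusted p = 6.67e-07), and Aifm2, a suppressor of ferroptosis (0.29, adjusted p = 0.000402). Against LacQ140, 1 of the transferases fell in LacQ140_A, and 1 selenoprotein and 1 ferroptosis gene fell in LacQ140_2M at 6 months, 1 thioredoxin-list gene rose in LacQ140_A at 12 months, and no other striatal value of the 7 lists was called, beside 1.88% and 1.26% of all genes at 6 months and 0.91%, 0.608% and 0.00565% at 12 months (LacQ140_A, LacQ140_2M and, at 12 months, LacQ140_8M). In cortex LacQ140 against WT + IPTG called 3 values at 6 months, 1 lower gene each in the thioredoxin, selenoprotein and NRF2 lists, and 0 at 12 months, where 0.881% and 0.0899% of all genes were called.

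The spiny projection neuron markers, all from the cells that fill the striatum, were lower along with Gpx6. In LacQ140 against WT + IPTG striatum 0 rose and 8 of 10 fell at 6 months (median -0.36), and 0 rose and 9 of 10 fell at 12 months (median -0.80), against -2.11 and -3.97 for Gpx6 and beside 7.93% and 9.44% of all genes called. Markers of other cell types moved in both directions. At 12 months all 5 blood markers fell (median -1.06), as did 3 of 7 choroid plexus (median -0.98), 2 of 6 astrocyte, 2 of 6 oligodendrocyte, 2 of 6 endothelial, 1 of 6 microglia, 1 of 7 meningeal fibroblast and 0 of 6 pituitary markers, and none of these rose. The cortical excitatory neuron markers went the other way at that age, with 2 of 5 that rose and 0 that fell (median 1.21), while at 6 months 0 rose and 1 of 5 fell (median -0.92). At 6 months 0 of 5 blood, 2 of 7 choroid plexus and 1 of 6 pituitary markers fell (medians -0.23, -0.72 and -0.33). Against LacQ140, 8 and 7 of 10 rose at 6 months in LacQ140_A and LacQ140_2M, and 4, 5 and 0 of 10 at 12 months in LacQ140_A, LacQ140_2M and LacQ140_8M, beside 1.88% and 1.26% and then 0.91%, 0.608% and 0.00565% of all genes, so that the last contrast called almost no gene of any kind. Against WT, 1 and 2 of 10 were lower at 6 months and 8, 8 and 9 of 10 at 12 months in LacQ140_A, LacQ140_2M and LacQ140_8M, beside 0.91% and 0.936% and then 3.15%, 4.09% and 7.77% of all genes. Their sum ran from 5039 to 6419 CPM in LacQ140 striatum and from 6143 to 9128 CPM in WT + IPTG striatum at 6 months, and from 4393 to 5482 and from 7514 to 10592 CPM at 12 months. After subtraction of group means, Gpx6 and this sum had a Spearman rho of 0.31 over 50 libraries at 6 months and 0.17 over 57 at 12 months. With the blood sum the rho was -0.19 and -0.26. Sex was not subtracted in these, and Gpx6 was higher and the blood medians lower in females. The part of these markers in the Gpx6 values was not tested.

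Around Gpx6 on chromosome 13, 59 genes were annotated within 500 kb of its ends, of which 42 and 40 had counts in striatum at 6 and 12 months. In LacQ140 against WT + IPTG striatum 2 rose and 2 fell at 6 months, and 0 rose and 1 fell at 12 months, with medians of 0.10 and 0.01. Of all genes, 7.93% and 9.44% were called, so these counts are not a result about the neighbourhood. Aoah, which inactivates bacterial lipopolysaccharide, fell at both ages (log2 fold changes -1.42 and -1.53, adjusted p = 1.24e-05 and 1.07e-05), at 0.538 ± 0.115 CPM in WT + IPTG and 0.201 ± 0.0954 CPM in LacQ140 mice at 6 months. At 6 months the zinc finger gene Zscan26 fell by 0.33, and the zinc finger gene Zkscan4 rose by 0.35. Olfr1535, an olfactory receptor, rose from 0.0429 to 0.0997 CPM (adjusted p = 0.0356), levels of a few counts. Gpx5, the nearest paralog, stayed at or near 0.

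Over all striatal libraries the genes whose level followed Gpx6 most closely were Ddit4l, Sec14l3, Penk, Arpp21 and Arpp19, the top 5 of 13281 genes by the mean of the Spearman rho at 6 months (50 libraries) and 12 months (57 libraries). Their mean rho was 0.91, 0.91, 0.88, 0.87 and 0.87. The libraries share groups, so these values mostly describe group means. After subtraction of the group means, the rho was 0.51 for Ddit4l and 0.55 for Sec14l3, which then ranked 5 and 1 of the 13281 genes. It was 0.36 for Penk, 0.22 for Arpp21 and 0.28 for Arpp19. Of the 5 paralogs with levels high enough to be ranked, Gpx8 had a mean rho of 0.35 and Gpx3 of -0.13, and after subtraction these were 0.19 and -0.20. The mean rho of Gpx1 after subtraction was also 0.19, but at the single ages it was -0.08 and 0.46, and that of Gpx8 was -0.02 and 0.40.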

How the data were processed

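Total RNA of striatum and cortex was read as 100 bp pairs on an Illumina NovaSeq. The authors deposited expected counts per gene, in 1 table per age, on the genome build GRCm38 per the labels. The aligner, counter and strandedness are not given in the sources used here. Of the values above 0, 26.79% were not whole (tolerance 0.001), and counts were rounded. Gene positions and sequences came from GENCODE vM21. Library totals lay between 33292057 and 68038831 counts.

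Each tissue and age was fitted across all genes with at least 1 count by edgeR 4.0.16 (R 4.3.3; TMM, quasi-likelihood F-test, all groups in 1 fit), and a gene was called at a Benjamini-Hochberg adjusted p under 0.05 with a change of 20% or more. SE is the log2 fold change over the root of F, and intervals are 95%. Tissues were compared with mouse as a block, and the ages in a fit of both tables. CPM per kb used the median transcript length. DESeq2 1.42.0 was an alternative, as were DESeq2 size factors, filterByExpr, sex, a replicate block, the length slope, fewer groups, no fold bound and each library left out. On simulated counts of 33735 to 37100 genes, all 100 genes changed by 1 on the log2 scale and 64 to 76 of 100 changed by 0.5 were called in 5 comparisons, with 1 to 8 false calls. The changed genes were drawn from well-counted genes only, and every gene was given the same spread. These shares therefore do not hold for members with few counts or a wider spread.

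The members, gene lists, markers and tests were chosen with earlier results of these data known. Named besides the members were Htt, at most 2 called genes per pathway list and striatal age with the largest change in LacQ140 against WT + IPTG, called genes within 500 kb of Gpx6, and the 5 genes (mean log2 CPM at least 1) most correlated with it. Mice are the replicates, and 0 columns were left out.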

Additional observations from a re-analysis of the deposited data

Results flagged for a closer look

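In groups of 9 or 10 libraries, the highest or lowest library of each member with a mean of at least 1 CPM was compared with its nearest neighbour by Dixon's gap ratio. Of 120 groups 10 were past the 95% limit, and chance alone flags about 1 in 20 groups. Gpx3 made up 5 of them. In striatum the high libraries were LacQ140_2M F5 at 6 months (10.5 CPM, group median 5.94) and, at 12 months, LacQ140 M1 (13.8 CPM, median 6.47), LacQ140_2M F4 (13.6 CPM, median 6.16) and WT M1 (19.7 CPM, median 7.96). In 12-month cortex it was LacQ140_2M F4 (18.9 CPM, median 11.3), the same mouse as the 12-month striatum above.

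For Gpx6 the highest 12-month LacQ140_2M striatum, F2, stood apart at 3.37 CPM (median 1.91). WT + IPTG M4 was high for both Gpx4 (441 CPM, median 333) and Gpx7 (3.98 CPM, median 2.96) in 12-month striatum. Gpx1 was high in the 6-month WT cortex M4 (213 CPM, median 120), which was also the library with the most blood marker RNA of its group (1780 CPM, median 345), and the part of blood in it was not tested. Gpx8 was high in the 12-month LacQ140_8M cortex F3 (8.05 CPM, median 4.18), which had the most meningeal fibroblast marker RNA of its group (89.7 CPM, median 58.2).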

How the results depend on the processing

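No called result, and no value of Gpx6 given as a description, changed direction under any alternative that was run. In the fits of 1 sex or 1 genotype 15 of 84 values of the 6 measurable members had the opposite sign to the fit over all mice, 6 of them in Gpx3 and 0 in Gpx6, and none was called in either fit. Across the alternatives, 540 values that answer a comparison and 220 values of single genes kept their side of the threshold, or stayed within their spread. Among the others, 5 and 6 of these kinds moved, 7 and 3 became stronger, and 2 that answer a comparison became weaker. Gpx6 in LacQ140_8M against LacQ140_2M striatum passed with sex as a covariate (-0.80, adjusted p = 0.0327), with only the 2 groups fitted (-0.83, adjusted p = 0.0129) and with DESeq2 (-0.82, adjusted p = 0.0199). Its difference between LacQ140_A and WT at 6 months passed with sex as a covariate (-0.50, adjusted p = 0.0297), in males alone (-0.96), and in some fits with a library left out, which ranged from -0.58 to -0.38. The sex difference fell to 0.13 in the WT groups at 6 months and 0.36 in the mutant groups at 12 months, where it did not pass. The number of other members called rose from 0 to 2 for LacQ140_A against LacQ140 in 12-month cortex with only these groups fitted, and to 1 for LacQ140_8M against WT striatum with no fold bound (Gpx4). With a library left out it ranged from 0 to 2 for LacQ140_8M against LacQ140_A in 12-month cortex (without LacQ140_8M F3), from 0 to 1 for LacQ140_2M against WT in 12-month striatum (Gpx8, without WT M5) and from 0 to 1 for LacQ140_A against WT in 6-month striatum (Gpx8). The labels tie replicate numbers to no shared litter or day, and not every pair of groups had same-numbered deviations correlated above 0.1: the mean correlation ranged from -0.06 to 0.11 and -0.08 to 0.26 in striatum and from -0.20 to 0.14 and -0.10 to 0.24 in cortex. The same-number means of 0.02, 0.06, 0.04 and 0.06 lay above the other-number means in all 4 sets, so a weak pairing was not excluded, and the numbers were not used as a block. With a replicate block Gpx6 in LacQ140_A against WT at 6 months passed (-0.51, adjusted p = 0.0444), and the block changed no other call of a member. Fits without each cortical library were not run for the sex difference, and the striatum against cortex fit was repeated without 1 mouse per age, a choice made after the data were seen. Gpx5, Gpx2 and cortical Gpx6 are limited by depth.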
